A study of Homo sapiens with 26 samples.

Results

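The comparison set 6 RNA-seq libraries of 2 NES-AURKA clones against 5 libraries of 2 WT-AURKA clones, which are 11 of the 26 libraries and 4 of the 9 lines of the series. Libraries were taken by construct, that is, every library labelled NES-AURKA or WT-AURKA, with no measured value in the choice. All 4 clones derive from MDA-MB-231Luc, which is the MDA-MB-231 line of human triple-negative breast cancer marked with luciferase. Each carries the pLUTZ mRFP vector, AURKA cDNA with the label MUT2, and the guide sgAURKA2. The cDNA of NES-AURKA has a nuclear export signal, a peptide that directs a protein out of the nucleus, and the cDNA of WT-AURKA has no added signal. All cells grew in doxycycline, which drives the cDNA from a promoter that answers to rtTA, and the labels give passages 32 to 35 for both constructs. NES-AURKA c1 has libraries F, S and T, NES-AURKA c2 has A, U and V, WT-AURKA c1 has D, O and P, and WT-AURKA c2 has Q and R. Each line is 1 clone, so what is particular to a clone and what its construct does cannot be told apart with 2 clones a side. The control lines, Empty, NES-Empty and NLS-Empty, carry the vector without cDNA, the guide sgCon and passages 19 to 20. Levels are given for Empty and NES-Empty, and NLS-Empty enters the shared spread and the control level of the chromosome runs. The study set the profiles beside the behaviour of the cells in xenografts, which was not analysed here.

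AURKA encodes Aurora A, a serine/threonine kinase that matures centrosomes and builds the bipolar spindle. TPX2 activates it on spindle microtubules, BORA together with it switches on PLK1, and the anaphase-promoting complex destroys it as cells leave mitosis. In breast cancer AURKA is often present at high level, and roles in the nucleus have been described beside those at the spindle. An added export signal bears on where the protein lies, which RNA levels do not show.

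Values are RPKM, a read count scaled by transcript length and by library total. Differences are NES-AURKA minus WT-AURKA on the log2(RPKM + 1) scale, averaged first over the libraries of a clone, and this scale understates the change of low genes. The test was limma on 1 value per line, with 1 spread per gene taken over all 9 lines around their group means. These groups were the control lines, WT-AURKA, NES-AURKA and the NLS-AURKA clones, which carry the label MUT1 and the guide sgAURKA1. The adjusted p thus rests on a shared spread and not on that between the NES-AURKA clones alone. Calls were made where the p adjusted by Benjamini and Hochberg was under 0.05. Of 33562 rows in the table, 12589 reached 1 RPKM in at least 2 of the 26 libraries and were tested. Levels are given as mean ± SD over the 2 clones of a construct, each clone being the mean of its libraries.

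The 3 libraries D, F and A belong to a set lettered A to H, and the other 8 to a set lettered I to Z. The labels do not say what the letters stand for. MALAT1, a nuclear long noncoding RNA, was at 195.8 to 439 RPKM in D, F and A and at 18.05 to 33.48 RPKM in the 8 others, and 23160 to 24418 against 19529 to 20409 rows were above 0. Estimated depth was 18000000 to 19500000 reads or fragments in D, F and A and 12100000 to 15100000 in the others. Counts were therefore also taken within I to Z, 2 libraries per clone, which leaves out D, F and A, and values within I to Z are given where a call was lost there. The line's markers were present, with VIM at 234 to 747 RPKM and CD44 at 32.2 to 66.6 RPKM over the 11 libraries, and ESR1 and PGR were at most 0.022 and 0.00358 RPKM. KRT19, a luminal keratin, was at 73.9 to 220 RPKM. In bulk RNA, fewer cells of a kind and less RNA per cell cannot be told apart.

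The 4 clones were not equally distinct from each other. Within I to Z the root mean square difference over the tested genes was 0.163 to 0.225 between libraries of the 2 WT-AURKA clones, while libraries of the same WT-AURKA clone differed by 0.202 (c1) and 0.181 (c2). Libraries of the 2 NES-AURKA clones differed by 0.398 to 0.425, slightly further than NES-AURKA libraries lay from WT-AURKA libraries (0.343 to 0.394). Libraries of 1 NES-AURKA clone differed by 0.158 (c1) and 0.259 (c2). In a fit to single libraries, 0 of 12589 genes (0%) were called between WT-AURKA c2 and c1 at adjusted p under 0.05 and an absolute log2 difference of at least 1, with 57 genes (0.453%) at an unadjusted p under 0.05 by limma. The 2 WT-AURKA clones were thus about as far apart as libraries of 1 clone. Whether the libraries of 1 line are separate cultures is not in the labels, and p-values measure only the spread between these samples, which may be technical.

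**Figure D1:**
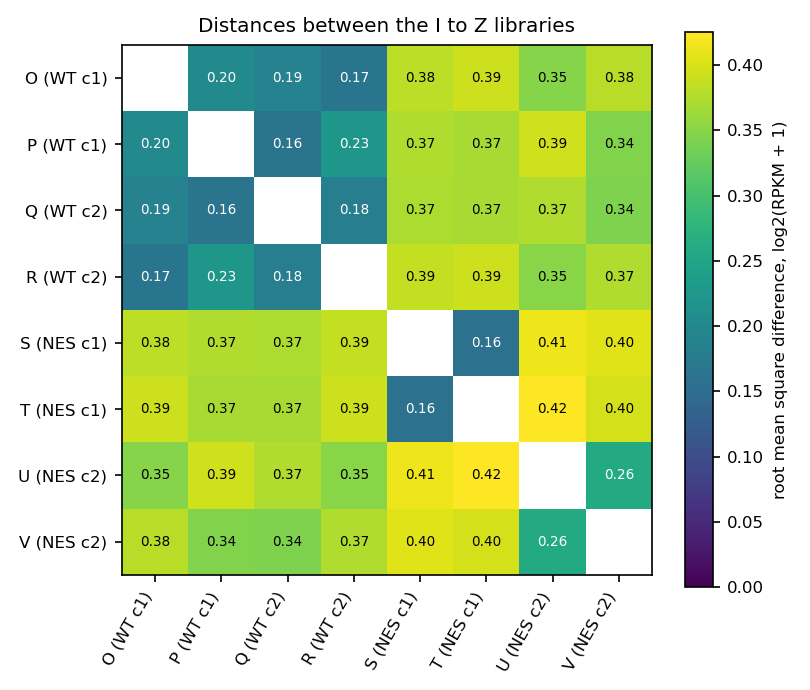
Root mean square difference in log2(RPKM + 1) over 12589 tested genes between each pair of the 8 libraries I to Z, with the value printed in each square and 0 on the colour scale for no difference. The 4 WT-AURKA libraries lie within 0.225 of each other, and the NES-AURKA c1 and c2 libraries lie 0.398 to 0.425 apart.

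Libraries D, F and A also stood apart from the libraries of their own clones. D differed from O and P by 0.607 and 0.618, F from S and T by 0.766 and 0.783, and A from U and V by 0.707 and 0.629, while D differed from A by 0.48 and from F by 0.532. AURKA was at 84.1 RPKM in D and at 14.1 and 12.8 RPKM in O and P, and several cancer-testis genes described below were low in D alone of the 5 WT-AURKA libraries. Among 65 genes that separated the constructs in I to Z, D lay on the WT-AURKA side for 48, and F and A on the NES-AURKA side for 41 and 46. Among 48 genes that separated NES-AURKA c2 from c1 in I to Z, A lay on the side of c2, its own clone, for 39, and F lay on either side for 24. Along most of the X chromosome F lay near the control lines where S and T lay far above them, as given below.

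AURKA itself was not called. Its level was 84.1, 14.1 and 12.8 RPKM in D, O and P of WT-AURKA c1 and 12.7 and 14.3 RPKM in Q and R of WT-AURKA c2. In NES-AURKA it was 22.6, 37 and 36.2 RPKM in F, S and T of c1 and 36.7, 15.5 and 21.5 RPKM in A, U and V of c2. All 6 NES-AURKA libraries lay above the 4 WT-AURKA libraries other than D, and below D. The means of Empty and NES-Empty were 61.6 and 59.6 RPKM, above every library of either construct except D. The construct means were 28.2 ± 5.17 RPKM (SD, n = 2 clones) and 25.3 ± 16.6 RPKM (n = 2), a difference of 0.52 (SE 0.26, limma adjusted p = 0.272). An exact two-sided permutation test over the clones gave p = 0.667, where 0.333 is the smallest value that 2 clones against 2 allow. Without library D the AURKA difference was 0.94 and passed (limma adjusted p = 0.00776), within I to Z it was 0.90 (adjusted p = 0.134), and between D and the A to H libraries of NES-AURKA it was -1.51 (adjusted p = 0.274). The table has 1 AURKA row, so reads from the cDNA and from the edited gene are summed. AURKB, the kinase of the chromosomal passenger complex, differed by -0.02 (adjusted p = 0.948) and TPX2 by 0.04 (adjusted p = 0.86).

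**Figure D2:**
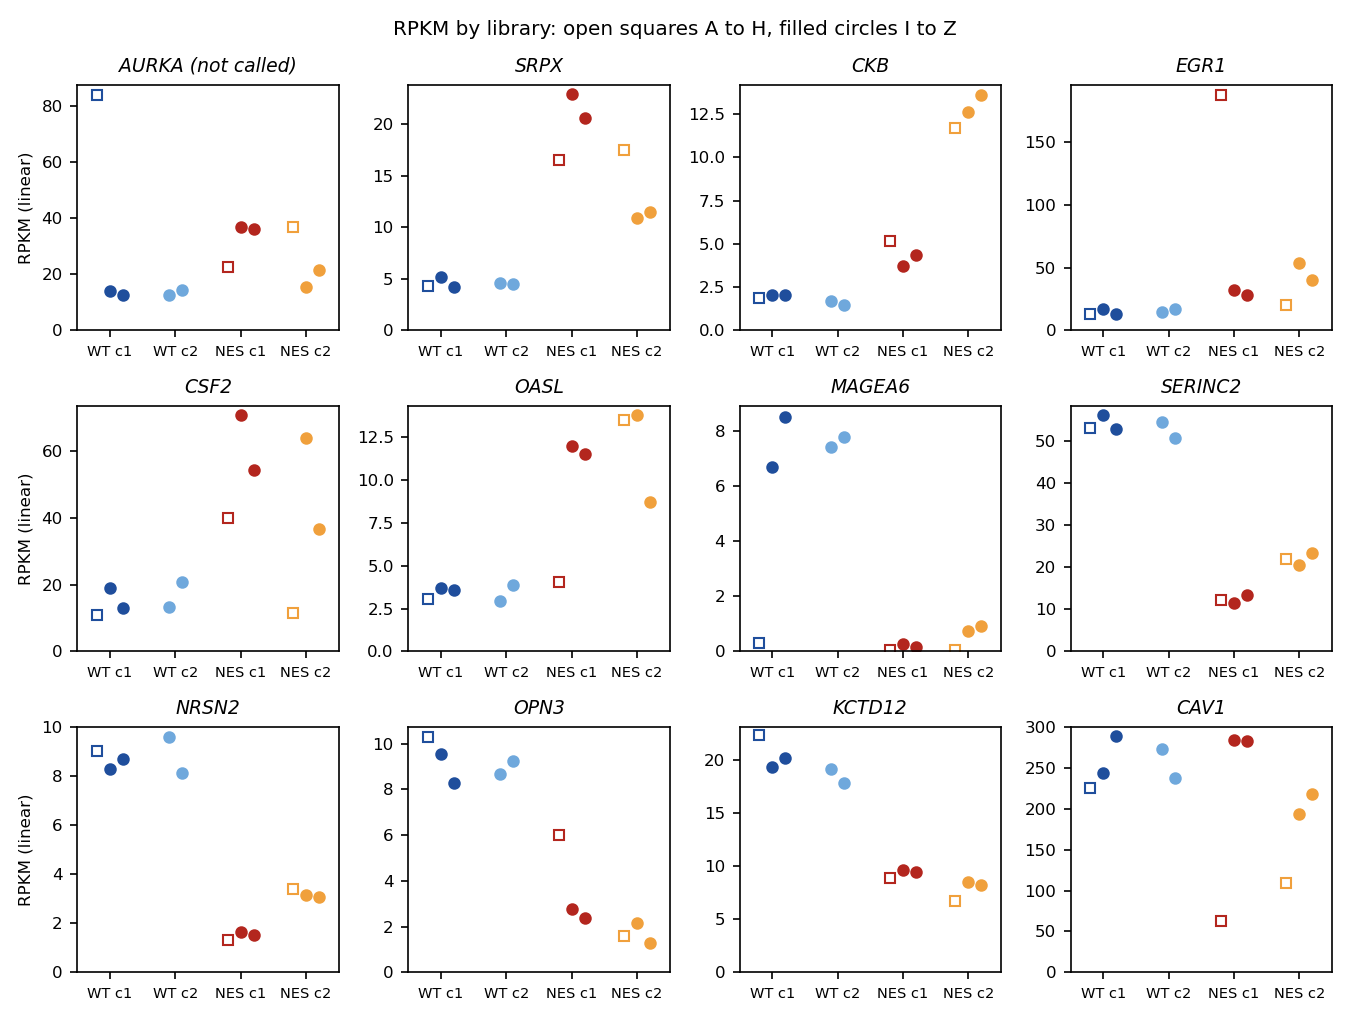
RPKM on a linear scale for AURKA and 11 other genes of the text, 1 panel per gene and 1 point per library, grouped by clone (open squares D, F and A, filled circles the libraries I to Z). In SERINC2, NRSN2, OPN3 and KCTD12 every WT-AURKA library lies above every NES-AURKA library, whereas in AURKA and MAGEA6 library D lies far from the other WT-AURKA libraries.

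Over all genes, 613 of 12589 were called (4.87%), 197 higher in NES-AURKA (1.56%) and 416 lower (3.3%). Most differences were modest, with 30 genes higher and 23 lower by at least 1 on the log2 scale among them (0.421%). Every called gene had the same sign within I to Z, where 572 genes were called (4.54%), 256 higher (2.03%) and 316 lower (2.51%), and 318 genes (2.53%) were called in both with the same direction. I to Z holds 8 of the same 11 libraries, so a shared sign there is no independent support. The clone means of the constructs did not overlap for 5407 genes (43%), 2153 higher (17.1%) and 3254 lower (25.8%). The 11 libraries did not overlap between the constructs for 433 genes (3.44%), 138 higher (1.1%) and 295 lower (2.34%), of which 227 were among the called (1.8% of tested genes). The balance of directions depended on scaling. The lower genes were 67.9% of the calls as deposited, 51.5% of 538 calls with each library centred on its median, 53.4% of 575 with quantile normalization and 47.2% of 432 with ribosomal RNA rows taken out of the total. The count depended strongly on single libraries and on the unit of replication. It was 2705 without D, 227 without O, 246 without P and 332 without A. Without a whole clone it was 435 (WT-AURKA c1), 20 (WT-AURKA c2), 2433 (NES-AURKA c1) and 2058 (NES-AURKA c2). With the 5 WT-AURKA libraries taken as 1 line, 34 genes were called, each of them among the 613, and with the 4 clones alone 2 genes were called.

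**Figure D3:**
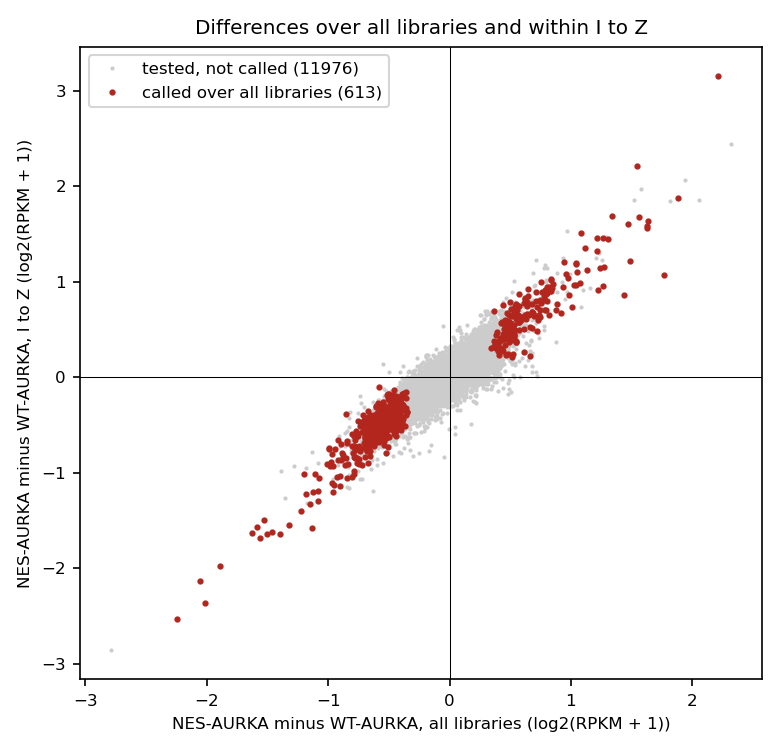
Difference between NES-AURKA and WT-AURKA in log2(RPKM + 1) for each of 12589 tested genes, over all 11 libraries (x axis) and within the 8 libraries I to Z (y axis), with the 613 genes called over all libraries in red. The red points lie at the lower left and upper right, since every called gene had the same sign within I to Z, whose 8 libraries are also among the 11.

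Cancer-testis genes, which are normally read in germ cells and are switched on in many tumours, were the list with the most lower calls. Of 40 listed, 15 were tested, 0 were higher and 7 lower (46.7% called, beside 4.87% of all genes). The 7 were MAGEA6, MAGEA3, MAGEA11, MAGEA12, MAGEB2, PAGE2 and PAGE5, all on the X chromosome. In MAGEA6, MAGEA12 and PAGE2 no NES-AURKA library reached the 1 RPKM of the filter, nor did the means of Empty and NES-Empty. A gene that passes the filter only through high WT-AURKA libraries is apt to be lower in NES-AURKA. The share called and its direction may thus rest in part on the filter. The median was -0.35 over the 15 beside -0.03 over all tested genes. MAGEA6 encodes a partner of E3 ubiquitin ligases. It was at 0.309, 6.69 and 8.52 RPKM in D, O and P and at 7.42 and 7.81 RPKM in Q and R. In NES-AURKA it was at 0.0387, 0.278 and 0.15 RPKM in F, S and T and at 0.0399, 0.743 and 0.922 RPKM in A, U and V. WT-AURKA libraries other than D lay far above all 6 NES-AURKA libraries, and D lay within the NES-AURKA range. The difference was -2.25 (SE 0.25, limma adjusted p = 0.00543) and -2.53 within I to Z (adjusted p = 0.000387). In Empty and NES-Empty MAGEA6 was at 0.239 and 0.192 RPKM, so the high level was that of the WT-AURKA libraries other than D.

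MAGEA3, a near-identical neighbour of MAGEA6, had the same pattern. It was at 1.34, 12.2 and 12.1 RPKM in D, O and P, at 13.4 and 10.4 RPKM in Q and R, and at 0.206 to 2.98 RPKM (median 1.5) in the NES-AURKA libraries. The difference was -2.01 (SE 0.29, limma adjusted p = 0.0102). It lost its call with letter set means subtracted (adjusted p = 0.161) and with no filter on low values (adjusted p = 0.0525). Subtracting those means also removes each gene's level, on which the mean-variance trend of limma rests. The adjusted p of that setting therefore does not isolate the letter set. Reads of the 2 genes can be split between them by the counting, so their single values are uncertain. In RefSeq (GRCh38.p14) the 250 bases before the start of MAGEA3 (chrX:152698544-152698793, plus strand) and of MAGEA6 (chrX:152769690-152769939, minus strand) differ at 0 positions, so 1 sequence stands for both. It is shown beside that of MAGEA12 (chrX:152733507-152733756, plus strand), since the 3 genes lie close together and had the same direction. Capitals mark the 27 bases that are the longest run shared by MAGEA3 and MAGEA12, taken from the 1 of 2 MAGEA12 windows that shares the longer run.
MAGEA3 and MAGEA6: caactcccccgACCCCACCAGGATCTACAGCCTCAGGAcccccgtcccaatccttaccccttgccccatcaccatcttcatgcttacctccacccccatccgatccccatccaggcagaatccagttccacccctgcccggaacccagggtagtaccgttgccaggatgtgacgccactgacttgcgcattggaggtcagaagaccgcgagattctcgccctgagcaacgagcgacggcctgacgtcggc
MAGEA12: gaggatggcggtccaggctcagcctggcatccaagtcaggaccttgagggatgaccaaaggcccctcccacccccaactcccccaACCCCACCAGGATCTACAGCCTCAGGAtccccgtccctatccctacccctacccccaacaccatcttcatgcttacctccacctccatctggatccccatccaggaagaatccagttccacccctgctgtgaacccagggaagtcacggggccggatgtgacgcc
The MAGEA3 stretch holds 15 CG pairs and the MAGEA12 stretch 5, beside a median of 11 over 35116 promoter windows of that length. Methylation, which is known to silence such genes, was not measured.

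MAGEA12 was at 0.141, 2.44 and 2.39 RPKM in D, O and P, at 1.93 and 2.14 RPKM in Q and R, and at 0 to 0.309 RPKM in NES-AURKA (difference -1.32, SE 0.15, limma adjusted p = 0.00542). MAGEA11, a coregulator of the androgen receptor, was the member whose 11 libraries did not overlap. It was at 0.84, 2.61 and 2.39 RPKM in D, O and P, at 2.4 RPKM in both Q and R, and at 0.0237 to 0.173 RPKM in NES-AURKA (-1.5, SE 0.13, adjusted p = 0.00208). Unlike MAGEA6, it was also present in Empty and NES-Empty, at 2.15 and 2.62 RPKM, so that the NES-AURKA clones were the lines at low level. MAGEB2 differed by -1.13 (adjusted p = 0.0119), a call that was lost without O or P (adjusted p 0.0625 and 0.0537) and its difference was 0.56 between D and the NES-AURKA libraries of A to H. PAGE2, at most 1.32 RPKM in any library, lost its call without O (adjusted p = 0.155). PAGE5 was at 78.7 ± 2.99 and 52.9 ± 8.55 RPKM (-0.67, adjusted p = 0.0157), and its difference was -0.36 without library F (adjusted p = 0.378) and -0.41 within I to Z (adjusted p = 0.262). SPANXA1, which has near-identical copies, was at 1.5 to 6.07 RPKM in WT-AURKA, at 40.5, 99.6 and 93.4 RPKM in F, S and T and at 4.41, 6.58 and 9.5 RPKM in A, U and V, and was not called (2.32, adjusted p = 0.134).

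Outside that family, the called genes with the lowest differences were of varied function. SERINC2, a membrane protein that brings serine into lipids, was at 53.1, 56.3 and 52.9 RPKM in D, O and P, at 54.6 and 50.8 RPKM in Q and R, and at 11.6 to 23.4 RPKM (median 17) in NES-AURKA. The libraries did not overlap, and the level in Empty (49.3 RPKM) and NES-Empty (52.5 RPKM) was that of WT-AURKA. The difference was -1.63 (SE 0.21, limma adjusted p = 0.00684). NRSN2, a small vesicle membrane protein, was at 8.15 to 9.62 RPKM in WT-AURKA, at 1.34, 1.65 and 1.53 RPKM in F, S and T and at 3.4, 3.14 and 3.09 RPKM in A, U and V (-1.59, SE 0.19, adjusted p = 0.00642). OPN3, an opsin of non-visual tissues, was at 8.26 to 10.3 RPKM in WT-AURKA and 1.27 to 5.99 RPKM (median 2.27) in NES-AURKA (-1.56, adjusted p = 0.0102), again without overlap. The same held for KCTD12, a subunit of GABA-B receptors, at 19.6 ± 1.49 and 8.59 ± 1.08 RPKM (SD, n = 2 clones each; -1.11, adjusted p = 0.00642).

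A further 5 of the 12 lowest genes overlapped in at least 1 library. IGFBP7, a secreted binder of insulin-like growth factors, was at 68.5 RPKM in D and 112 to 135 RPKM in the other WT-AURKA libraries, and at 33.2 to 71.3 RPKM in NES-AURKA (-1.08, SE 0.15, limma adjusted p = 0.0102). PROS1, which encodes the anticoagulant protein S, was at 7.6 to 12.2 RPKM in WT-AURKA, at 10.7 RPKM in F and at 1.91 to 4.45 RPKM in the other NES-AURKA libraries (-1.15, adjusted p = 0.0132). SEMA7A, a membrane-anchored semaphorin, was at 33.2 ± 3.9 and 15.2 ± 2.38 RPKM (-1.13, adjusted p = 0.00646). FAM133A, on the X chromosome, lost its call within I to Z (-1.5, adjusted p = 0.0729) and without O, P or F (adjusted p 0.054 to 0.0918). ARRB1, which encodes beta-arrestin 1, lost it without any 1 of O, P, S, T and U (adjusted p 0.0509 to 0.0804) and was at 7.49 RPKM in F, within the WT-AURKA range.

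Among the called genes the largest higher difference was that of APCS, which encodes serum amyloid P component, a plasma pentraxin. It was listed at 0 in all 5 WT-AURKA libraries, at 0.179, 9.38 and 9.46 RPKM in F, S and T, and at 0.33, 6.56 and 6.77 RPKM in A, U and V. It was thus near the floor in both NES-AURKA libraries of A to H and clearly present in all 4 of I to Z. The difference was 2.21 (SE 0.1, limma adjusted p = 3.23e-05) and 3.16 within I to Z (adjusted p = 3.41e-05). Empty and NES-Empty had 0.133 and 0.224 RPKM.

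SRPX, a secreted protein with sushi repeats, was at 4.26, 5.15 and 4.24 RPKM in D, O and P, at 4.59 and 4.48 RPKM in Q and R, and at 10.9 to 22.9 RPKM (median 17) in NES-AURKA, with no overlap (1.63, SE 0.17, limma adjusted p = 0.00542). CKB, brain-type creatine kinase, was at 1.48 to 2.05 RPKM in WT-AURKA, at 5.17, 3.72 and 4.33 RPKM in F, S and T and at 11.7, 12.6 and 13.6 RPKM in A, U and V (1.62, SE 0.34, adjusted p = 0.0325). CKB separated the constructs without overlap and also separated the 2 NES-AURKA clones, and both constructs lay below Empty at 23.2 RPKM. Its call was lost within I to Z (1.58, limma adjusted p = 0.0562), and its adjusted p was 0.127 with no filter on low values. With letter set means subtracted the difference was 1.63 (adjusted p = 0.85). That setting removes the gene level on which the mean-variance trend rests, so its adjusted p does not isolate the letter set. TNS4, an adaptor of focal adhesions, was at 4.8 ± 0.095 and 12.8 ± 0.927 RPKM (SD, n = 2 clones each; 1.22, adjusted p = 0.00684), also without overlap and also below Empty at 36 RPKM. Of the 12 highest genes 6 did not overlap between the constructs and 9 were also called within I to Z, the others being CKB, UCA1 (0.86, adjusted p = 0.118) and COL6A2 (0.92, adjusted p = 0.184). The 12 were chosen for large called differences with 1 sign in all clone pairs, also within I to Z. Both counts therefore rest in part on that choice. Of all 613 called genes, 227 did not overlap and 318 were also called within I to Z in the same direction.

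EGR1, a zinc-finger factor of the immediate early response, was at 13.3, 17 and 13.2 RPKM in D, O and P and at 15 and 17.2 RPKM in Q and R. In NES-AURKA it was at 187, 32.4 and 27.8 RPKM in F, S and T and at 20.3 to 54 RPKM in A, U and V. No library overlapped, though F held over 3 times the next library. The difference was 1.48 (SE 0.23, limma adjusted p = 0.0132) and 1.22 within I to Z (adjusted p = 0.0254). The EGR1 call was lost in the fit to single libraries (adjusted p = 0.167) and with no filter on low values (adjusted p = 0.0582). Empty was higher than either construct at 75.4 RPKM. EGR1 is a textbook target of serum response factor, which binds the CArG box, searched here on both strands. The 250 bases before its start in RefSeq (GRCh38.p14, chr5:138465229-138465478, plus strand) are shown with the 2 CArG boxes found there in capitals.
EGR1: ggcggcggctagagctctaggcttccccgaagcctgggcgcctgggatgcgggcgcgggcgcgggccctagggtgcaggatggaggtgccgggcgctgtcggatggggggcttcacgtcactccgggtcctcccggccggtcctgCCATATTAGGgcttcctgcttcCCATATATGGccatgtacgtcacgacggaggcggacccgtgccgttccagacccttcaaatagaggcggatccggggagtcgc
At least 1 box was found in 1.16% of 35116 promoter windows of that length, and at least 2 in 0.0313%. A match is a description of letters and not of binding. EGR1 was the 1 immediate early gene called among 23 tested, 1 higher and 0 lower (4.35%, beside 4.87% of all genes). The list's median was 0.17 (0.18 within I to Z).

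Of the other genes among the 12 highest, 5 had calls that were lost without 1 or more single libraries. UCA1, a long noncoding RNA known from bladder cancer, was at 72.7 RPKM in A and 2.51 to 9.79 RPKM in the other NES-AURKA libraries, and without A its difference was 0.76 (limma adjusted p = 0.279). COL6A2, a chain of collagen VI, was at 29.2 RPKM in F and 3.23 to 11 RPKM in the other 5, and was lost without F (0.75, adjusted p = 0.282) or P (1.08, adjusted p = 0.0708). PRSS3, which encodes mesotrypsin and has close trypsinogen relatives that make its value uncertain, was at 2.16 RPKM in F, within the WT-AURKA range, and lost its call without any 1 of O, P, S, T and A (adjusted p 0.0561 to 0.088). FKBP9L, a partial copy of FKBP9 whose value is uncertain because reads can be split between them, was lost without any 1 of O, P, S, T, U and V (adjusted p 0.0509 to 0.095), and NES-Empty exceeded Empty in it by 1.38. RP11-301G19.1, a noncoding transcript that is uncertain where genes overlap it, was at 15.3 and 31.6 RPKM in F and A and 2.31 to 2.97 RPKM in S, T, U and V, and was lost without A (1.23, adjusted p = 0.0643).

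The called genes of inflammation and of the interferon response were higher in NES-AURKA over the 11 libraries. Of 32 tested NF-kB and cytokine genes 4 were higher and 0 lower (12.5% called, beside 4.87% of all genes). The median was 0.08 (-0.03 within I to Z, where 4 were higher and 1 lower). The lowest difference in the list was that of IL11, at -1.08, which was not called. CSF2, the granulocyte-macrophage growth factor, was at 11, 19.1 and 13 RPKM in D, O and P, at 13.4 and 20.8 RPKM in Q and R, at 39.9, 70.8 and 54.3 RPKM in F, S and T and at 11.4, 64 and 36.6 RPKM in A, U and V (1.34, SE 0.31, limma adjusted p = 0.044). Library A alone lay in the WT-AURKA range. The call was lost without any 1 of O, P, Q, F, U and V (adjusted p 0.0524 to 0.149). NFKBIZ, IL1B and CXCL3 differed by 0.82, 0.67 and 0.48, but were not called within I to Z (adjusted p 0.135, 0.606 and 0.283) or without F (adjusted p 0.108, 0.379 and 0.297).

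Of 47 tested interferon-stimulated genes 4 were higher and 0 lower (8.51% called, beside 4.87% of all genes), with a median of 0.09 (0.15 within I to Z). These 4 were also called within I to Z, where 5 were higher, and in each fit that left out 1 library. OASL, an antiviral 2'-5'-oligoadenylate synthetase-like protein, was at 2.96 to 3.9 RPKM in WT-AURKA, at 4.05, 12 and 11.5 RPKM in F, S and T and at 13.5, 13.8 and 8.72 RPKM in A, U and V (1.3, SE 0.24, limma adjusted p = 0.0223, and 0.0923 with no filter on low values). DDX58, which encodes the RNA sensor RIG-I, was at 5.03 to 8.58 RPKM in WT-AURKA and 8.9 to 16 RPKM in NES-AURKA (0.97, SE 0.14, adjusted p = 0.0102). ISG20, an exonuclease, was at 0.599 ± 0.107 and 1.93 ± 0.149 RPKM (0.84, adjusted p = 0.00543), and IFI27 at 1.79 ± 0.0757 and 4.62 ± 0.531 RPKM (0.94, adjusted p = 0.0128). None of the 4 overlapped between the constructs. In IFI27 Empty and NES-Empty were at 7.15 and 10.7 RPKM, above the means of both constructs. They lay below the NES-AURKA mean in OASL (1.9 and 4.16 RPKM), DDX58 (6.01 and 6.76 RPKM) and ISG20 (0.604 and 0.737 RPKM). Of 4 tested leukocyte markers 1 was higher (25%), CD68 by 0.53 (limma adjusted p = 0.0562 within I to Z). Leukocyte markers summed to 46.7 to 86 RPKM in WT-AURKA and 79.5 to 137 RPKM in NES-AURKA, mostly from LCP1. PTPRC, which defines leukocytes, was at most 0.0659 RPKM in any of the 11 libraries.

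Among breast cancer metastasis genes, 3 of 30 tested were higher and 0 lower (10% called, beside 4.87% of all genes). The median was 0.04 (3 higher and 1 lower within I to Z). TNC, the matrix glycoprotein tenascin C, was at 3.02 to 4.38 RPKM in WT-AURKA and 5.89 to 8.87 RPKM in NES-AURKA, without overlap (0.7, SE 0.12, limma adjusted p = 0.0185). L1CAM, a cell adhesion molecule of neurons and invading tumour cells, was at 0.272 to 0.785 and 0.981 to 3.64 RPKM, also without overlap (0.88, SE 0.13, adjusted p = 0.0114). HBEGF, an EGF receptor ligand, was at 9.15 ± 1.08 and 14.7 ± 0.203 RPKM (0.62, adjusted p = 0.0144), a call lost without O (adjusted p = 0.079). SPRY4, an inhibitor of receptor tyrosine kinase signalling in the EGF family list, was higher by 0.64 (adjusted p = 0.0138).

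Matrix proteases and their inhibitors gave 1 call each way among 25 tested (8%, beside 4.87% of all genes), with a median of -0.18. TIMP1, an inhibitor of matrix metalloproteinases, was at 61.1 to 75.5 RPKM in WT-AURKA and 77.4 to 179 RPKM in NES-AURKA, without overlap (0.85, SE 0.16, limma adjusted p = 0.023, and adjusted p = 0.051 without U), a call also lost within I to Z (0.98, adjusted p = 0.0589). ADAM15, a membrane protease, was at 37 to 47.7 and 13.1 to 28.2 RPKM, without overlap (-0.99, SE 0.1, adjusted p = 0.00542). Hypoxia targets and glycolysis genes gave 3 higher and 2 lower of 43 (11.6%), with a median of 0.05 (0.21 within I to Z). Their 5 calls (BHLHE40, ALDOC, P4HA2, PKM and ARNT) were each lost without 1 or more single libraries, at adjusted p 0.0511 to 0.199, and ALDOC and PKM also within I to Z (adjusted p 0.161 and 0.197). Mitochondrial respiratory chain genes gave 0 higher and 5 lower of 45 (11.1%, with 2 lower within I to Z), SDHC among them (-0.53). No member of the p53 target, ATF4 amino acid stress, ribosomal protein, mesenchymal or keratin lists was called by limma, with 6 of 23, 5 of 28, 6 of 51, 5 of 16 and 3 of 12 tested members at an unadjusted p under 0.05 (23.1% of all genes). Within I to Z the p53 and keratin lists had 1 higher call each and the mesenchymal list 1 each way. CAV1 and CAV2, which encode caveolins and stand in the basal list, were lower by 0.58 and 0.75 in NES-AURKA. Without library F CAV1 differed by -0.22 (adjusted p = 0.622, and 0.735 within I to Z) and CAV2 by -0.54 (adjusted p = 0.0519).

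**Figure D4:**
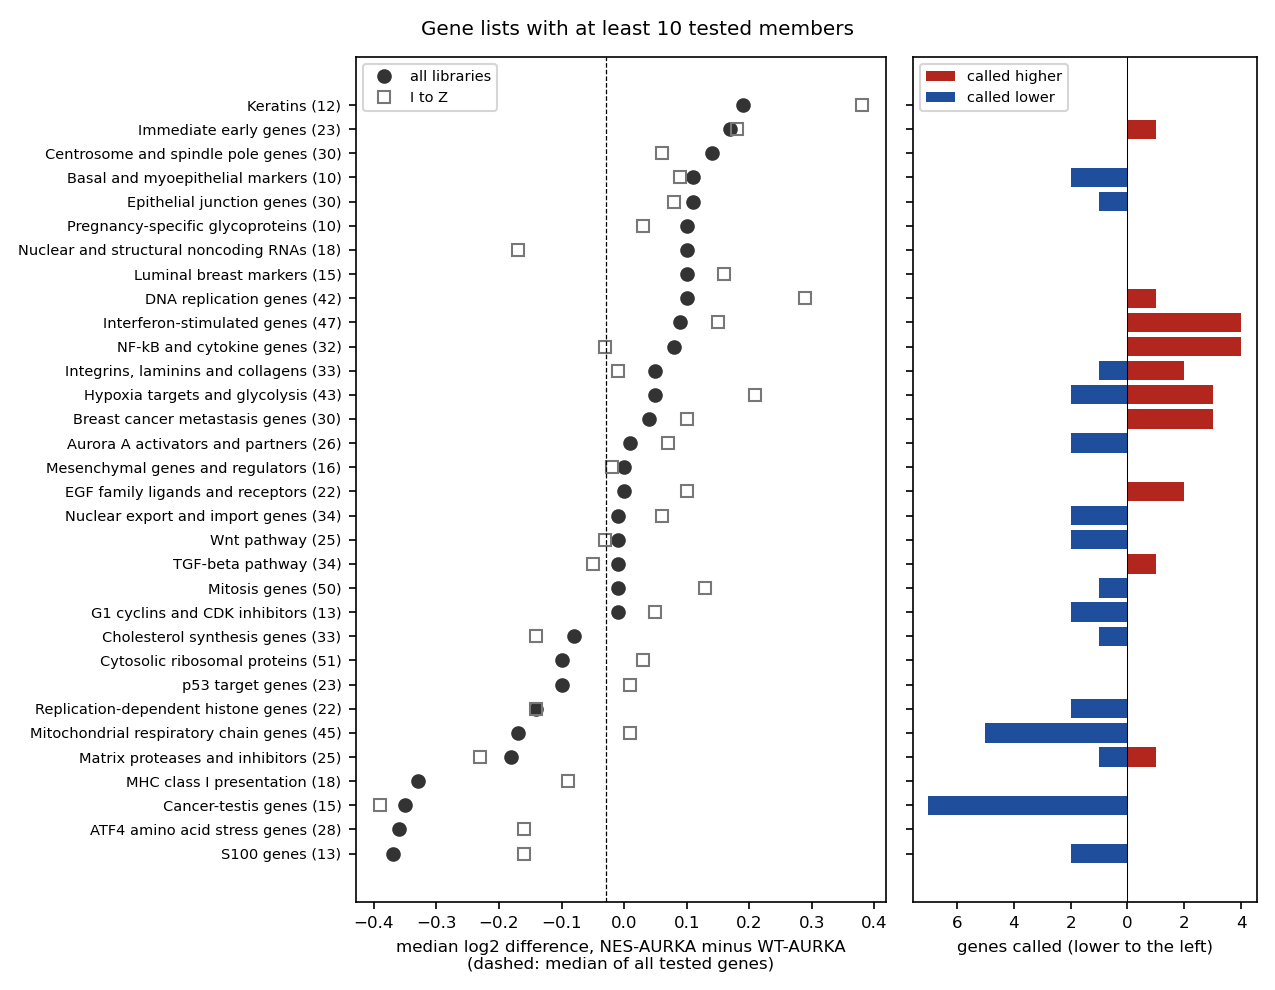
Gene lists with at least 10 tested members (number in parentheses): left, the median difference in log2(RPKM + 1) over all libraries (filled circles) and within I to Z (open squares), with the median of all tested genes dashed; right, the number of members called higher (red) and lower (blue). Cancer-testis genes have 7 lower calls, and the interferon and NF-kB lists have 4 higher calls each.

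Of 26 tested genes that activate Aurora A or act with it, 0 were higher and 2 lower (7.69%, beside 4.87% of all genes), with a median of 0.01. Within I to Z 1 was higher and 0 lower, with a median of 0.07. BORA, the cofactor through which Aurora A activates PLK1, was at 7.84 to 10.6 RPKM in WT-AURKA and 3.68 to 7.78 RPKM in NES-AURKA, without overlap (-0.47, SE 0.11, limma adjusted p = 0.0435). The BORA call was lost within I to Z (-0.34, adjusted p = 0.0899) and without any 1 of O, P, Q, F, A and U (adjusted p 0.0616 to 0.122). ARHGEF2, a microtubule-bound activator of RhoA, differed by -0.79, by -0.61 within I to Z (adjusted p = 0.211) and by -0.5 without A (adjusted p = 0.28), and was also lost without O or P (adjusted p 0.0656 and 0.0598). The mitosis list, 50 genes tested, had 0 higher calls and 1 lower call (2%) and a median of -0.01, and within I to Z 3 were higher and 1 lower, with a median of 0.13. The lower gene over all libraries was NUF2, a subunit of the NDC80 complex that ties kinetochores to microtubules. NUF2 was at 21.2, 20.5 and 22.5 RPKM in D, O and P, at 22.2 and 19.7 RPKM in Q and R, and at 7.3 to 17.7 RPKM (median 12.9) in NES-AURKA, without overlap (-0.72, SE 0.13, adjusted p = 0.0214). Of 9 passenger complex and 30 centrosome genes none was called by limma, with 1 and 6 at an unadjusted p under 0.05, beside 2905 of all genes (23.1%), and 1 centrosome gene was higher within I to Z. Among 13 G1 cyclins and inhibitors 2 were lower (15.4%). RB1, the retinoblastoma protein, was at 20.6 to 23.8 and 11.4 to 17.5 RPKM, without overlap (-0.59, SE 0.11, adjusted p = 0.0225). CCND2 differed by -1.08 and was lost without any 1 of O, P, T and A (adjusted p 0.0647 to 0.0858). Nuclear export and import genes, which include the exportins that read an export signal, had 0 higher and 2 lower of 34 (5.88%), and 2 each way within I to Z. IPO5 and KPNA3, importins, differed by -0.58 and -0.51, and each was lost without O, P or U (adjusted p 0.0649 to 0.108), IPO5 also without A (adjusted p = 0.0758).

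Many of these lower members lie on few chromosomes. Of the 34 lower genes in any list, 23 lie on chromosome 1, 13 or X, among them NUF2, ADAM15, S100A11, S100A13 and SDHC on chromosome 1, and BORA, RB1, IPO5 and KPNA3 on chromosome 13. Of the 21 higher genes 3 do. Among all 416 lower calls, 121 lie on chromosome 1, 52 on chromosome 13 and 47 on X. Among all 197 higher calls these counts are 6, 0 and 37. The list members thus share this with the calls as a whole, and 7 of the 23 are cancer-testis genes on X. To describe this, the 11457 tested genes (91%) with a place in RefSeq were cut along each chromosome into 287 runs of about 40 neighbours. Each gene's level in a library was set against the mean of Empty, NES-Empty and NLS-Empty in its letter set, and the median was taken per run. The order of genes was taken from another build than the values, so no coordinates are given for the genes of the runs. This description was chosen after the values had been seen and carries no test. Chromosomes 1, 13 and X held 46.2% of the placed called genes and 15.7% of the placed tested genes. The share of tested genes called was 25.7% on chromosome 13, 20.6% on X, 10.7% on chromosome 1, 7.48% on chromosome 20 and 5.59% on chromosome 5. Within I to Z these shares were 17.3%, 8.85%, 9.01%, 8.1% and 15.4%, so that the share on X was lower without D, F and A and that on chromosome 5 higher. In 11 runs at least 10 genes were called in 1 direction, and these held 30.1% of the placed called genes and 3.87% of the placed tested genes.

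On chromosome 1, the 200 tested genes of 5 neighbouring runs, from LIX1L to NUF2, had 72 lower and 2 higher calls and a median difference of -0.37 (-0.39 within I to Z). The library medians relative to controls were -0.11 to 0.06 in WT-AURKA, -0.46 to -0.37 in NES-AURKA c1 and -0.45 to -0.37 in NES-AURKA c2, so WT-AURKA was near the controls and every NES-AURKA library was below them. The 2 NES-AURKA clones were low over different lengths of the chromosome. In the 640 genes before HIPK1, F, S and T were at -0.40 to -0.37 while A, U and V were at -0.17 to -0.11. In the 267 genes from RC3H1 to PGBD2, F, S and T were at 0.04 to 0.12 and A, U and V at -0.40 to -0.26. The stretch with most calls is the one where both clones were low.

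On chromosome 13 it was WT-AURKA that stood apart from the controls. In the 122 genes from CCDC122 to CHAMP1, 51 were lower and 0 higher (median -0.42, and -0.41 within I to Z). WT-AURKA libraries lay above the controls by 0.24 to 0.30, and NES-AURKA libraries at -0.15 to -0.05. In the 80 genes before them, from TUBA3C to ENOX1, 1 gene was called, and both constructs lay between -0.12 and 0.02. On chromosome 20 the last 41 genes, from LSM14B to PCMTD2, had 11 higher and 0 lower calls (median 0.35), with WT-AURKA at -0.33 to -0.14 and NES-AURKA at 0.07 to 0.27.

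The X chromosome held calls in both directions. In the 80 genes from AP1S2 to RBM3, 31 were higher and 4 lower, SRPX and TIMP1 among the higher ones, with a median of 0.36 (0.44 within I to Z, where 11 were higher and 2 lower). WT-AURKA was at -0.17 to -0.02, S and T at 0.56 and 0.51, and A, U and V at 0.38, 0.04 and 0.11. Library F was at -0.04, within the WT-AURKA range, and so differed from the other 2 libraries of its clone. In the 287 genes from WDR13 to WASH6P, 1 was higher and 40 lower (median -0.26, and -0.12 within I to Z, where 2 were higher and 16 lower). There WT-AURKA was at 0.73 to 0.85, S and T at 0.76, A, U and V at 0.49 to 0.59 and F at 0.07. S and T thus lay at the WT-AURKA level, and F and the libraries of NES-AURKA c2 below it. Chromosome 5 had 24 higher and 5 lower calls over 519 genes, and 78 higher and 2 lower within I to Z, with O, P, Q and R at -0.45 to -0.40, D at -0.19 and NES-AURKA at -0.33 to -0.10. The difference between NES-Empty and Empty had a median of -0.03 to 0.00 in the stretches with dense calls on chromosomes 1, 13, 20 and X, and of 0.23 in the last stretch of chromosome 1. Copy number was not measured, and its part in these levels was not tested.

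**Figure D5:**
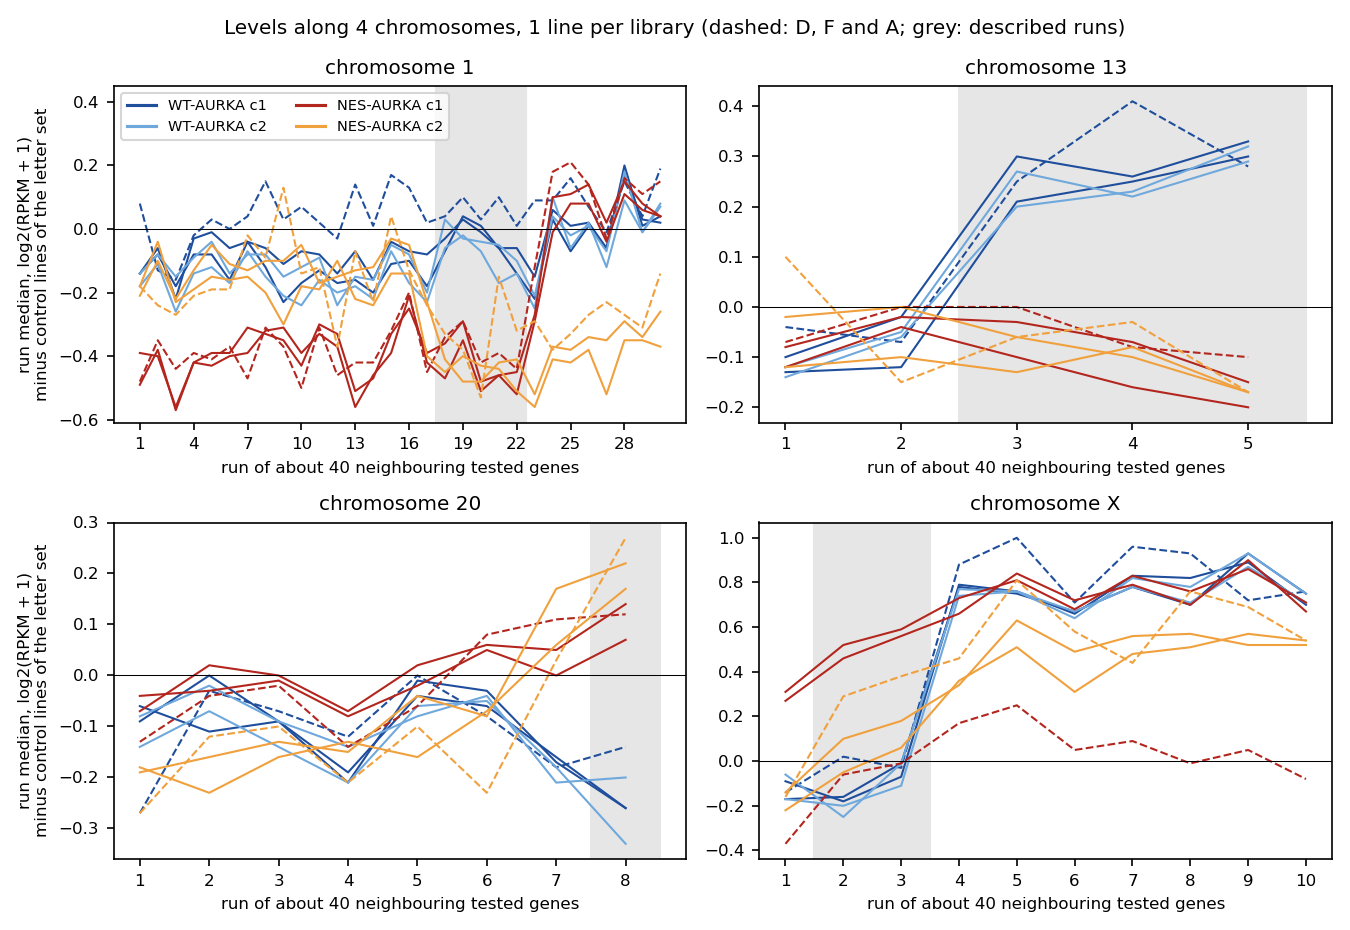
Median log2(RPKM + 1) relative to the control lines of the same letter set, for each of the 11 libraries (1 line each, dashed for D, F and A), along runs of about 40 neighbouring tested genes on chromosomes 1, 13, 20 and X, with the runs that held at least 10 calls in 1 direction shaded. On chromosome 13 the WT-AURKA libraries lie above the controls over the shaded runs (0.24 to 0.30 in all) and the NES-AURKA libraries do not, and on the X chromosome library F runs below S and T of its clone.

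The 2 NES-AURKA clones also differed from each other. In the fit to single libraries 136 genes (1.08%) were called between NES-AURKA c2 and c1, 30 higher (0.238%) and 106 lower (0.842%) in c2, and 228 (1.81%) within I to Z, 58 higher (0.461%) and 170 lower (1.35%). SERPINA1, which encodes alpha-1-antitrypsin, was at 12.1, 16.6 and 16.9 RPKM in F, S and T and at 0.654, 2.56 and 1.59 RPKM in A, U and V, with WT-AURKA at 1.83 to 5.78 RPKM. COX7B2, a testis form of a cytochrome c oxidase subunit, was at 5.26, 9.75 and 10.1 RPKM in c1 and 0.0631 to 0.0885 RPKM in c2, with WT-AURKA at 10.3 to 26.6 RPKM. HLA-DRA, an MHC class II chain, was at 18.7, 18.5 and 15.8 RPKM in c1 and 0.477, 4.63 and 2.4 RPKM in c2, with WT-AURKA at 4.54 to 8 RPKM, so the mean of the 2 NES-AURKA clones (10.1 ± 10.7 RPKM, SD, n = 2) describes neither. CALHM2, a calcium channel subunit, was at 0.0791 to 0.351 RPKM in c1 and 3.02 to 7.81 RPKM in c2, with WT-AURKA at 5.49 to 6.42 RPKM. These 4 genes separated the NES-AURKA clones without overlap, and none was called between the constructs (limma adjusted p 0.0692 to 0.97). They were picked for their difference between the clones, so the separation follows from the choice. A large spread between clones also enters the spread of the test between constructs. CKB, picked in the same way, was called between the constructs (limma adjusted p = 0.0325). In 27 runs of neighbouring genes the 2 clones differed by at least 0.4 within I to Z. There F lay nearer to c1 in 19 and A nearer to c2 in 20, and in the 3 of those runs on the X chromosome F lay nearer to c2 in all 3 and A nearer to c1 in 2.

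The last comparison set the difference between the constructs beside that between their empty vectors, NES-Empty minus Empty, which carry the same signal or none without AURKA cDNA. These were 2 lines of 3 libraries each, and 2 of 12589 genes (0.0159%) were called between them in the fit to single libraries, 1 in each direction (0.00794%). Within I to Z 5 were (0.0397%), 4 higher (0.0318%) and 1 lower (0.00794%). The fit to single libraries takes libraries and not clones as its unit. Its p-values therefore measure only the spread between libraries of a line and not that between clones. The difference of the 2 differences was called for 31 genes (0.246%). Of these 11 were higher (0.0874%) and 20 lower (0.159%), and 20 of the 31 were among the calls between constructs (0.159%). Within I to Z it was called for 128 (1.02%), 47 higher (0.373%) and 81 lower (0.643%), and for 78 with the letter set as a covariate. The genes named here were picked for their differences between the constructs, which are a term of this value, so it is no separate support. SERINC2 differed by 0.12 between the empty vectors and by -1.75 in the difference of differences (limma adjusted p = 0.00139). For NRSN2 these values were 0.07 and -1.66 (adjusted p = 1.45e-05), for SRPX 0.28 and 1.35 (adjusted p = 0.00992), and for CKB 0.23 and 1.4 (adjusted p = 1.81e-05). OPN3 gave -1.65 (adjusted p = 0.0169), ARRB1 -1.65 (adjusted p = 0.0197) and MAGEA12 -1.59 (adjusted p = 0.0234). For MAGEA6 and APCS the values were -2.19 and 2.11 and were not called (adjusted p 0.118 and 0.452), with libraries of A to H apart from those of I to Z in both. The empty vector lines have sgCon and earlier passages and the clones sgAURKA2 and later ones, so the cDNA, the guide and the passage cannot be told apart in this comparison.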

How the data were processed

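RNA was measured in 26 libraries of 9 MDA-MB-231Luc lines, of which 11 were compared. Per the labels' protocols, libraries were made from total RNA with a KAPA mRNA kit. The tools HISAT2, SAMtools and Partek and the build hg19 are named per the submitters' processing notes. For versions, annotation, strand and shared reads, the setting is not given in the sources used here. From these steps the authors deposited RPKM values, already scaled by transcript length and library total, so no count test was run. RPKM sums move with abundant RNA, hence the scaling alternatives. Depth was estimated from the commonest value of 1 read over 3475 rows with 1 annotated transcript length. Of the values above 0, 4.72% lay under 1e-04 and were read as 0.

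limma (version 3.58.1, R 4.3.3) was fitted to log2(RPKM + 1) with a mean-variance trend: on line means for constructs, and on libraries with 1 coefficient per line for clones and empty vectors. Genes needed 1 RPKM in at least 2 libraries. Clone numbers c1 and c2 did not pair (correlation of deviations 0.071, and 0.0088 within I to Z). On simulated data with 200 changed genes among 12589, limma called 81 of 100 genes changed by 1 on the log2 scale. It also called 98 of 100 changed by 2, and 8 others. The changed genes excluded those at low level, each gene had the same spread in every line, and genes were drawn independently. In the deposited libraries the NES-AURKA clones lay further apart than the WT-AURKA clones, and neighbouring genes moved together. Whether these counts carry over to the deposited libraries was not tested.

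Named genes were AURKA, AURKB and TPX2. Added to them were the 12 highest and 12 lowest called genes with at least 5 RPKM in the higher construct and 1 sign in all clone pairs and within I to Z. Up to 4 called members of each of 38 lists, or 2 members of a list without calls, were added, and 5 genes at either end for clone differences. The text reports a part of these, and some are not reported here. Members and lists were chosen with earlier results of these data known. Fibroblast markers summed to at most 1.92 RPKM in any of the 11 libraries, and PTPRC was at most 0.0659 RPKM. Promoter sequences are from RefSeq (GRCh38.p14) by symbol, which matched 83 of 113 named genes. Alternatives included other filters, pseudocounts, scalings, letter sets and leaving out each library or clone.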

Additional observations from a re-analysis of the deposited data

Results flagged for a closer look

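In groups of 5 WT-AURKA or 6 NES-AURKA libraries, the highest or lowest library was set against the others on the log2(RPKM + 1) scale for AURKA and the 24 leading genes. In 9 of 49 such groups 1 library lay far from the rest, and 6 of the 9 were library D. The cutoff flags about 1 in 20 groups of independent values. These genes were picked from the same values and some move together, so that rate does not apply here. D is the only A to H library of WT-AURKA, whereas F and A can mask each other in NES-AURKA. D was high for AURKA (84.1 RPKM, next 14.3) and RP11-301G19.1 (2.98 RPKM, next 1). It was low for MAGEA6 (0.309 RPKM, next 6.69), MAGEA3 (1.34, next 10.4), FAM133A (4.82, next 10.1) and IGFBP7 (68.5, next 112). Library A was high for UCA1 (72.7 RPKM, next 9.79) and low for CSF2 (11.4, next 36.6), and library F was low for PRSS3 (2.16, next 7.24). The cause was not tested.

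The difference between NES-AURKA and WT-AURKA differed from that between NES-Empty and Empty for 31 genes. Among the leading genes these were SRPX (difference of differences 1.35), CKB (1.4), SERINC2 (-1.75), NRSN2 (-1.66), OPN3 (-1.65) and ARRB1 (-1.65). The leading genes were picked for large differences between the constructs, which are a term of this value, so it is no separate support. Guide and passage also differ between the clones and the empty vector lines.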

How the results depend on the processing

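All 613 called genes kept their sign in each alternative that tested them except the A to H fit (603 of 613). The alternatives reuse the same libraries, so a kept sign is no independent support. Which genes passed depended on the libraries and the unit of replication. The number called was 0 in the A to H libraries (limma, WT-AURKA being D alone), 2 with the 4 clones alone and 34 with the WT-AURKA clones pooled as 1 line, an alternative chosen after seeing the data. It was 20 to 2705 when 1 library or clone was left out. Clone number shares only a number, and as a replicate block in the 4 clones it gave 54 calls. Filters, pseudocounts, scalings, variance settings, the letter set alternatives other than A to H and the fit to libraries gave 422 to 616. The AURKA difference was -1.51 in A to H and 0.09 to 0.94 with 1 library or clone left out. NES-AURKA c2 against c1 gave 228 calls in I to Z, 83 with a filter at 5 RPKM, 274 with a pseudocount of 0.1, and 103 to 188 without 1 library. WT-AURKA c2 against c1 gave 0 calls throughout, including 0 without any 1 library. The comparison with empty vectors gave 128 calls in I to Z, 78 with the letter set as a covariate and 25 to 45 without 1 library. Reversed values were those of genes that separate the NES-AURKA clones when 1 clone was left out (over both omissions, SSX1 -1.22 and 0.80, RP11-54A9.1 0.93 and -0.39, SERPINA1 2.13 and -0.56, HLA-DRA 1.36 and -1.25, and 1 clone-named transcript -1.09 and 0.60), and in A to H MAGEB2 (0.56) and PAGE2 (0.24). The cause was not tested.

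Of 73 named called genes, 32 (16 of the 24 leading ones) passed in every fit that left out 1 library, and 9 passed with the WT-AURKA clones pooled (APCS, RP11-301G19.1, MAGEA6, MAGEA11, MAGEA12, MAGEB2, ADAM15, ISG20 and HIST1H1C). Runs of 20 or 80 genes, or started 20 genes later, gave 25, 5 and 13 runs with as dense calls in 1 direction, each set mostly on chromosomes 1, 13 and X. Near 1 RPKM few reads lie behind a value, so low genes carry the largest counting error.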
